A study of Mus musculus with 32 samples.

Results

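Genes listed as targets of the transcription factor p53 were followed in single-cell RNA counts of mouse cells on their way from fibroblast to induced pluripotent cell. A listing does not show that p53 acts on each of them in mouse cells. The set holds p53 itself (Trp53) and 34 named genes that are commonly listed as its targets or partners, 35 names in all. A column was found for 34 of the 35 names among the 24421 genes of the tables, Perp2 being the exception, and all 34 passed the filter on low counts with 13229 genes tested. The names were chosen with earlier results of these data known.

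The tested media act on mouse embryonic fibroblasts (MEFs) that were treated with doxycycline at 2 ug/mL on irradiated MEF feeder cells, which start reprogramming; the transgene that doxycycline drives is not given in the sources used here. A2S cultures received ascorbic acid (50 ug/mL), the DOT1L inhibitor SGC0946 (5 uM) and, 12 h later, 2i, which joins the GSK3 inhibitor CHIR-99021 to the MEK inhibitor PD-0325901; they were sampled at days 2, 4 and 6. The media A2, S2 and AS, sampled at days 4 and 6, each lacked one part of it: A2 had no SGC0946, S2 no ascorbic acid and AS no 2i. FBS cultures had doxycycline and serum medium without small molecules (days 3, 6, 9 and 12). ESC A2S are V6.5 embryonic stem cells (ESCs) grown with the A2S molecules and labelled day 2, and the groups they are set against are untreated ESCs of the same line in serum medium and untreated MEFs. All groups, MEFs and ESCs included, were in ESC medium with serum and leukemia inhibitory factor. Each of the 16 groups has 2 libraries, named A and B, and no label tells whether these were separate cultures; the p-values therefore rest on a spread that may be technical.

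As background, p53 is a transcription factor that is held at a low level by Mdm2, a ubiquitin ligase whose own gene p53 activates, so that the pair forms a feedback loop. When DNA damage, oncogenes or the Cdkn2a locus free p53 from Mdm2, it activates genes that stop the cell cycle, chiefly Cdkn1a (p21), genes of apoptosis such as Bax, Bbc3 and Pmaip1, and genes of DNA repair and metabolism. In reprogramming, p53 and p21 are known as a barrier, since fewer fibroblasts become pluripotent where they are active. Many of the targets also answer to other signals, so their levels are not a measure of p53 activity alone.

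DNA letters that match the p53 motif are shown for 6 members, as the results below turn on Cdkn1a, Mdm2, Ccng1, Trp53 and Ckap2, and Bax was called in just 1 comparison. RefSeq promoter windows (GRCm38.p6, 250 bases before to 50 bases after a start) were at hand for 27 of the 34 members, in 37 windows. A p53 half-site, the 10-letter unit of which the p53 response element has 2, was searched on both strands. It was found in 12 of the members' 37 windows, belonging to 11 members, against 2722 of all 32544 windows (8.36%). Only Cdkn1a had 2 half-sites within 13 bases of each other, as did 24 windows of the whole table (0.0737%). Capitals mark the half-sites, 5′ to 3′ on the gene's strand. Only exact matches to RRRCWWGYYY (R is A or G, W is A or T, Y is C or T) were counted and marked. Near matches stay in lower case, such as the tgacatgttc directly after the second Cdkn1a half-site, which is off by its first letter.

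Cdkn1a, chr17:29090886-29090957, + strand: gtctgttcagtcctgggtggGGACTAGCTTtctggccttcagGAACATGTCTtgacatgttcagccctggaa
Mdm2, chr10:117710915-117710964, - strand: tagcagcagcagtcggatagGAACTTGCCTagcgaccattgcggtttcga
Ccng1, chr11:40755442-40755491, - strand: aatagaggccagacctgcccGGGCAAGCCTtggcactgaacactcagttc
Trp53, chr11:69580264-69580313, + strand: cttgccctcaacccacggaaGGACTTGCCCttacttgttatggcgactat
Ckap2, chr8:22185993-22186042, - strand: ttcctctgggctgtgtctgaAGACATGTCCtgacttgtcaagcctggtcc
Bax, chr7:45467070-45467119, - strand: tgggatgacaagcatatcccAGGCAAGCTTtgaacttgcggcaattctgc

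A match is a string of letters and not a site of binding. The genes themselves lie, in mm10 by the GENCODE annotation, at chr17:29090976-29100727 (Cdkn1a), chr10:117688875-117710758 (Mdm2), chr11:40748552-40755311 (Ccng1), chr11:69580359-69591873 (Trp53), chr8:22168160-22185819 (Ckap2) and chr7:45461697-45466898 (Bax).

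Of 8334 barcodes, 684 were on the authors' list of irradiated feeder cells and are described apart, which left 7650 cells. Per library this was 138 to 431 cells with 1727490 to 8848775 UMIs (unique molecular identifiers, each standing for one captured RNA molecule), at a median of 5240 (FBS day 9 A) to 23194.5 (A2S day 2 B) UMIs per cell. UMIs were summed over the cells of a library, since cells are not replicates, so fewer cells with a gene and less of its RNA per cell cannot be told apart in these sums. The 12 fibroblast markers summed to 22.6 and 19.1 CPM (UMIs scaled to library size) in ESCs and to 12441 and 11462 CPM in MEFs, while the 10 pluripotency markers summed to 4986 and 4887 CPM in ESCs and to 0.332 and 1.94 CPM in MEFs. The AS day 4 libraries stand apart from each other (Ccng1 1282 and 729 CPM, summed interferon-response genes 44.3 and 1202 CPM in A and B) and enter the shared fit but none of the comparisons. Of the barcodes, 34 occur in 2 libraries.

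Levels are CPM for libraries A and B. Changes are log2 fold changes, each ± an SE, in a quasi-likelihood model that edgeR fitted to all 32 libraries (n = 2 per group). The model gives no SE, so it was derived from the fold change and the F statistic of its test and is approximate. A gene is called higher or lower at a Benjamini-Hochberg adjusted p under 0.05 over all genes tested.

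**Figure D1:**
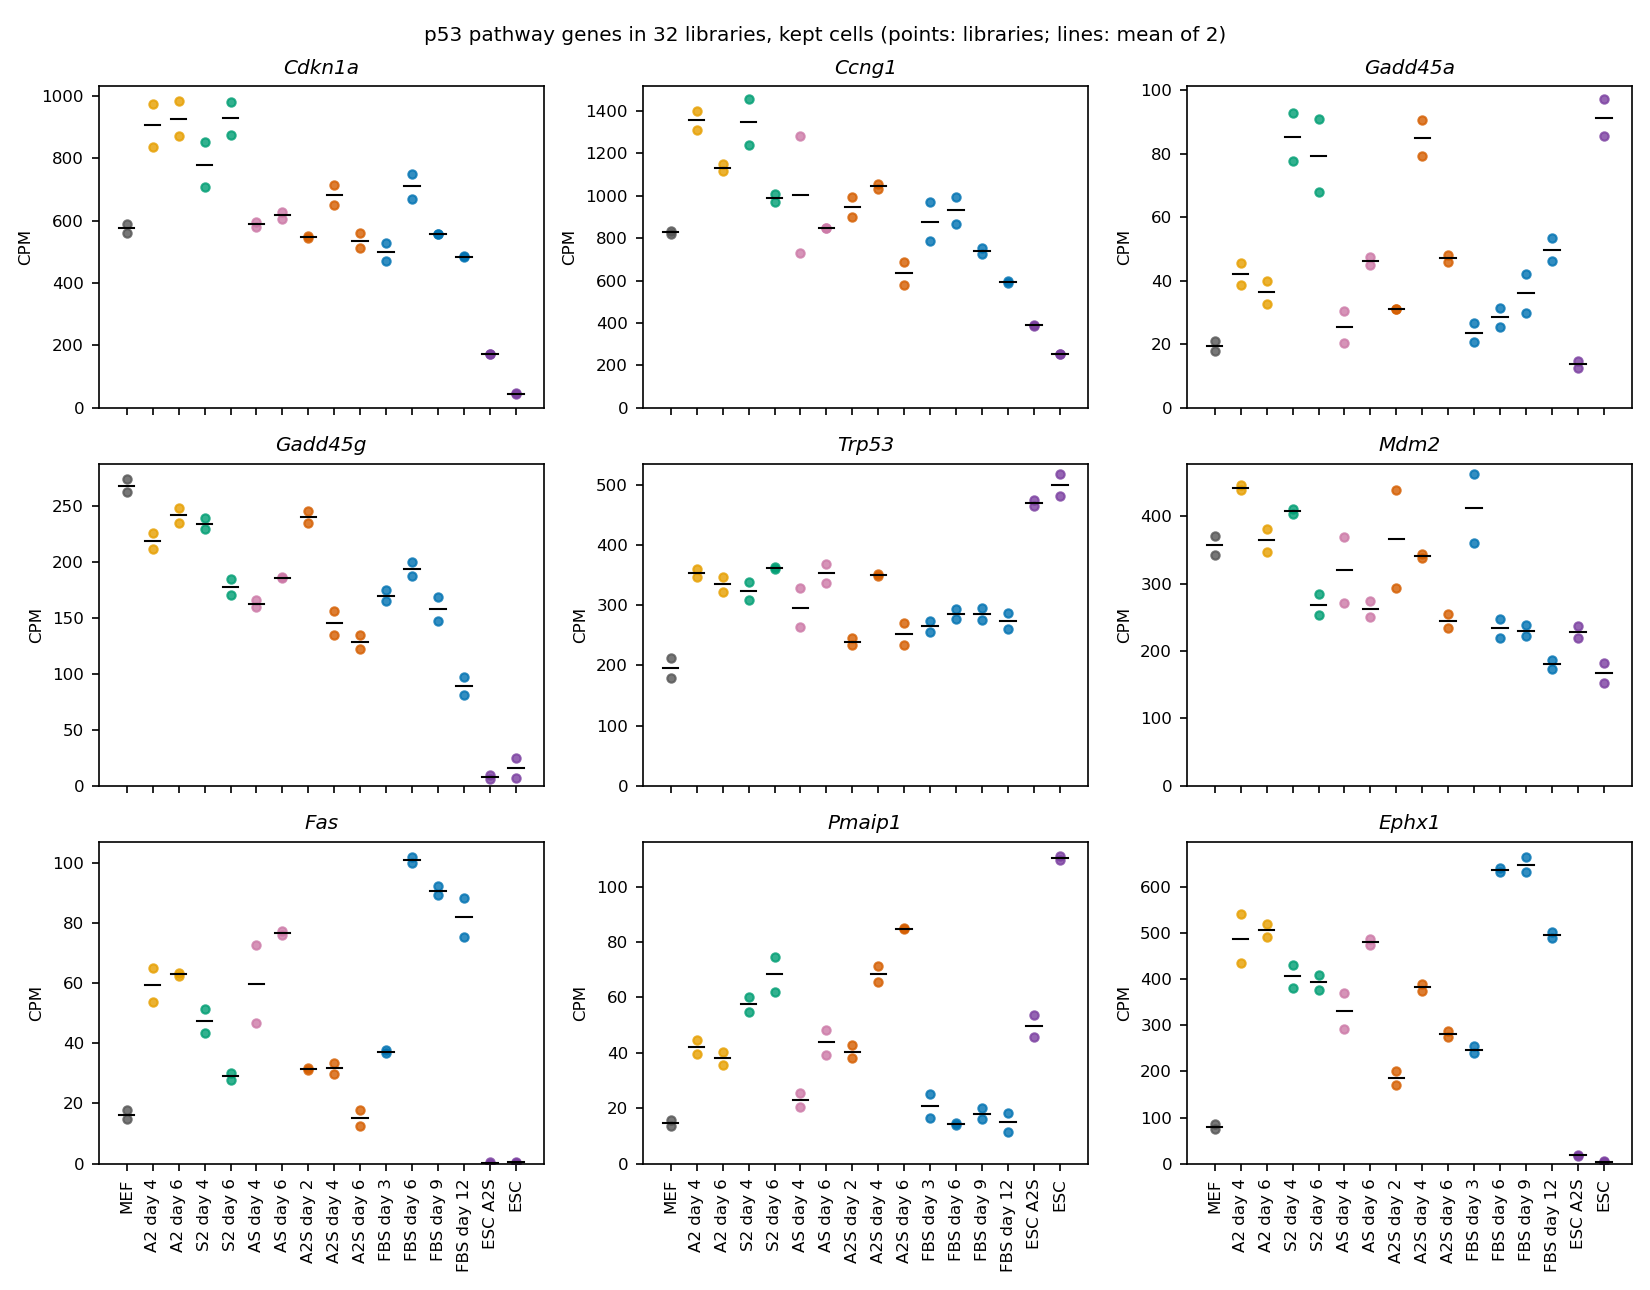
CPM of 9 members in each library (points) of 16 groups, with a line at the mean of 2 libraries. The lowest Cdkn1a values are the 48.5 and 42.9 CPM of ESCs, and Fas runs from 0 CPM in an ESC A2S library to 102 CPM in an FBS day 6 library.

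The 2 ends of reprogramming differed in most of these genes. In ESCs against MEFs, 29 of the 34 members were called, 11 higher and 18 lower, where 71.8% of all genes were called, 36.3% higher and 35.5% lower; the median log2 fold change was -0.59 over the members and 0.02 over all genes. Of the 9 arrest and cell cycle genes, 6 were lower and 2 higher. Cdkn1a, the inhibitor of cyclin-dependent kinases, stood at 48.5 and 42.9 CPM in ESCs, against 589.6 and 560.1 CPM in MEFs. Both ESC libraries lay far below both MEF libraries (-3.65 ± 0.12, adjusted p = 5.69e-22). Ccng1, cyclin G1, fell as well (-1.71 ± 0.15), as did the stress-kinase gene Plk2 (-3.82 ± 0.20) and the growth-arrest genes Gadd45g (-4.05 ± 0.20) and Gadd45b (-2.42 ± 0.20). Their relative Gadd45a went the other way, with 97.1 and 85.5 CPM in ESCs, against 21.1 and 17.8 CPM in MEFs. The groups did not overlap (2.24 ± 0.17).

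The regulator and its inhibitor moved in opposite directions between these cells. Trp53 had 481 and 518 CPM in ESCs, against 212 and 178 CPM in MEFs, so that every ESC library exceeded every MEF library (1.36 ± 0.10, adjusted p = 3.48e-13). Mdm2 had 182 and 153 CPM in ESCs, against 371 and 342 CPM in MEFs. It was lower in both ESC libraries (-1.09 ± 0.15, adjusted p = 6.49e-08). A Trp53 pseudogene has a column of its own, and how the counting treated reads shared with it is not given in the sources used here.

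Cell death genes also split between the ends. Pmaip1 (Noxa) and Bbc3 (Puma), both BH3-only activators of mitochondrial apoptosis, were higher in ESCs (2.89 ± 0.16 and 1.89 ± 0.22). The death receptor gene Fas had 0.419 and 0.367 CPM in ESCs, against 17.8 and 14.9 CPM in MEFs. It came to 2 UMIs in the ESC libraries together, against 222 UMIs in MEFs, a ratio of 0.0242 relative to library size (95% interval for counting alone 0.00291 to 0.0884), and it was called lower (adjusted p = 1.15e-10). Among repair and metabolic genes, Ddb2, which recognises ultraviolet damage, rose (3.00 ± 0.33), and so did Tigar, a phosphatase that slows glycolysis (1.82 ± 0.15). Ephx1, an epoxide hydrolase, had 5.86 and 2.57 CPM in ESCs, against 74.5 and 86.3 CPM in MEFs. Its ESC libraries were lower by over an order of magnitude (-4.28 ± 0.23, adjusted p = 8.85e-17).

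In serum medium at day 3, more arrest genes were below than above their fibroblast level. At FBS day 3, set against the MEF libraries used above, 12 members were higher and 8 lower, 20 of 34 in all (40.8% of all genes were called, 19.8% higher and 20.9% lower). Cdkn1a had 527 and 471 CPM in FBS day 3, against 589.6 and 560.1 CPM in MEFs. The day 3 libraries were the lower ones, but the difference missed the threshold (-0.20 ± 0.10, adjusted p = 0.0993); it was called without library FBS day 3 A (-0.33, adjusted p = 0.0415), by DESeq2 (-0.25, adjusted p = 0.039), with RLE factors (-0.25, adjusted p = 0.0403) and with no count filter (-0.27, adjusted p = 0.0341), and it was 0.011 with the listed feeder cells kept (adjusted p = 0.976). Ccng1 (0.08 ± 0.14) and Mdm2 (0.21 ± 0.14) were not called either. Trp53 reached 274 and 256 CPM in FBS day 3, against 212 and 178 CPM in MEFs, above both MEF libraries (0.44 ± 0.10, adjusted p = 7.97e-04); with the listed feeder cells kept it was 0.23 and not called (adjusted p = 0.0841).

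Of the 9 arrest genes 5 fell at day 3, among them Plk3 -1.13 ± 0.24, Gadd45b -1.05 ± 0.16, Plk2 -0.95 ± 0.15 and Gadd45g -0.66 ± 0.14, and only the spindle gene Ckap2 rose (1.23 ± 0.13). Polk, a DNA polymerase that copies past damage, fell (-0.79 ± 0.17). The genes that rose most belong to other roles. Gdf15, a secreted stress cytokine, had 19.5 and 32.2 CPM in FBS day 3, against 7.30 and 5.96 CPM in MEFs. Ephx1 had 254 and 239 CPM in FBS day 3, against 74.5 and 86.3 CPM in MEFs. For both genes the day 3 libraries were all above the MEF libraries (1.96 ± 0.24 and 1.61 ± 0.12). Dcxr, a carbonyl reductase, and Fas rose too (1.49 ± 0.17 and 1.20 ± 0.18). Interferon-response genes summed to 1164 and 1055 CPM at FBS day 3, against 70.4 and 58.1 CPM in MEFs, and 35.8% and 26.9% of the day 3 barcodes were on the feeder list; their part in these differences was not tested. Without MEF B the count of called members was 12, and without FBS day 3 B it was 13.

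Between days 3 and 12 in serum medium Mdm2 fell, while Cdkn1a and Trp53 were not called. At FBS day 12, against FBS day 3, 9 members were higher and 10 lower (45.7% of all genes were called, 23.5% higher and 22.2% lower). Cdkn1a had 487 and 482 CPM in FBS day 12, against 527 and 471 CPM in FBS day 3. The libraries of both days overlapped (-0.04 ± 0.10, adjusted p = 0.772), and Trp53 stood at 0.05 ± 0.11. Mdm2 had 174 and 187 CPM in FBS day 12, against 361 and 462 CPM in FBS day 3, so both day 12 libraries were the lower ones (-1.19 ± 0.15, adjusted p = 1.19e-07). Ccng1 fell too (-0.57 ± 0.15).

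Sesn1, which restrains mTORC1 growth signalling, had 24.2 and 25.5 CPM in FBS day 12, against 4.30 and 3.76 CPM in FBS day 3. Bbc3 had 60.02 and 68.7 CPM in FBS day 12, against 22.6 and 12.2 CPM in FBS day 3. In both genes day 12 lay above day 3 without overlap (2.61 ± 0.29 and 1.87 ± 0.24). Fas, Trp53inp1 (a cofactor of the p53 response) and Gadd45a rose by about the same amount (1.13 ± 0.17, 1.13 ± 0.17 and 1.08 ± 0.21). Falls were found for the receptor tyrosine kinase gene Epha2 (-1.80 ± 0.18), Gdf15 (-1.76 ± 0.31), Plk2 (-1.69 ± 0.20) and Aen, a nuclease of apoptosis (-1.54 ± 0.39). Of 20 cell cycle genes that p53 lowers through p21 and the DREAM repressor complex, 19 were lower at day 12, and 16 were higher at day 3 than in MEFs, 2 comparisons that share the day 3 libraries. Interferon-response genes summed to 49.6 and 52.95 CPM at day 12, against 1164 and 1055 CPM at day 3, and their part was not tested.

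In A2S medium at day 2, Gdf15 had the largest rise among the members and Cdkn1a was not called. At A2S day 2, set against the same MEF libraries as FBS day 3, 10 members were higher and 6 lower (49.8% of all genes were called, 25.6% higher and 24.2% lower). Cdkn1a was 545 and 549.9 CPM in A2S day 2, against 589.6 and 560.1 CPM in MEFs. The day 2 libraries were the lower ones by less than the fit could separate (-0.07 ± 0.10, adjusted p = 0.586), and Ccng1 (0.19 ± 0.14) and Mdm2 (0.04 ± 0.14) were not called. Gdf15 had 61.4 and 71.8 CPM in A2S day 2, against 7.30 and 5.96 CPM in MEFs, with no overlap (3.34 ± 0.21, adjusted p = 3.24e-14). Pmaip1 (1.45 ± 0.17), Tigar (1.38 ± 0.15), Ephx1 (1.20 ± 0.12) and Fas (0.95 ± 0.18) also rose. Among the genes that fell were Plk2 -1.50 ± 0.15, Btg2, an antiproliferative gene (-1.29 ± 0.11), Plk3 -1.01 ± 0.23, the adenylate kinase gene Ak1 (-0.97 ± 0.11) and Polk -0.90 ± 0.17. Trp53 was called higher (0.30 ± 0.10), a call that was lost with RLE factors (0.20), no count filter (0.23), the listed cells kept (0.13), DESeq2 (0.20), and without A2S day 2 A (0.19), A2S day 2 B (0.27) or MEF B (0.17). Interferon-response genes summed to 1109 and 1182 CPM at A2S day 2, against 70.4 and 58.1 CPM in MEFs, and 27.2% and 22.8% of the day 2 barcodes were on the feeder list; their part was not tested.

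Between days 2 and 6 in A2S medium, 11 members rose and 10 fell (50.5% of all genes were called, 24.4% higher and 26.1% lower), and Cdkn1a (-0.03 ± 0.10) and Trp53 (0.07 ± 0.10) were not among them. Ddb2 had 14.1 and 23.5 CPM in A2S day 6, against 2.43 and 3.67 CPM in A2S day 2. Trp53inp1 had 269 and 202 CPM in A2S day 6, against 43.9 and 56.00 CPM in A2S day 2. Both rose without overlap (2.59 ± 0.34 and 2.23 ± 0.16), as did Btg2 (1.69 ± 0.11), Dcxr (1.33 ± 0.17) and Bbc3 (1.23 ± 0.23). Falls were found for Fas (-1.05 ± 0.20), Aen (-0.92 ± 0.33), Gadd45g (-0.90 ± 0.15), Gdf15 (-0.78 ± 0.19), Plk3 (-0.70 ± 0.28), Ccng1 (-0.58 ± 0.14) and Mdm2 (-0.58 ± 0.14). Calls were lost for Mdm2 (-0.21), Aen (-0.82) and Plk3 (-0.47) without A2S day 2 B, for Aen without A2S day 2 A (-0.91), and for Ccng1 (-0.42), Aen (-0.56) and Plk3 (-0.40) without A2S day 6 B. DESeq2 ended the calls of Aen (-0.86, adjusted p = 0.127) and Plk3 (-0.64, adjusted p = 0.15), and RLE factors that of Plk3 (-0.64, adjusted p = 0.059). Interferon-response genes summed to 23.98 and 23.8 CPM at A2S day 6, against 1109 and 1182 CPM at A2S day 2, and 11 of the 11 tested were lower. Of 12 fibroblast markers 7 were lower (median -1.30), as were 5 of 10 macrophage and blood markers, while all 10 pluripotency and all 8 epithelial markers were higher. The part of these lists in the differences of the members was not tested.

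At day 6 the 2 media could be compared at the same time. In A2S against FBS, 22 members were called, 9 higher and 13 lower (52.7% of all genes were called, 26.4% higher and 26.2% lower), with a median of -0.09 over the members and 0.01 over all genes. Cdkn1a had 511 and 559.8 CPM in A2S day 6, against 669.5 and 749 CPM in FBS day 6. Both A2S libraries lay below both FBS libraries (-0.40 ± 0.10, adjusted p = 0.00101). Ccng1 fell in the same direction (-0.55 ± 0.14), without a call when A2S day 6 B was left out (-0.42), while Trp53 (-0.18 ± 0.11) and Mdm2 (0.07 ± 0.14) were not called.

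Fas and Pmaip1 were among the genes that differed most. Fas had 17.8 and 12.5 CPM in A2S day 6, against 102 and 99.8 CPM in FBS day 6. Pmaip1 had 84.9 and 84.9 CPM in A2S day 6, against 13.96 and 14.5 CPM in FBS day 6. Neither gene's groups overlapped, and they moved in opposite directions (-2.72 ± 0.19 and 2.58 ± 0.18). Higher in A2S were also Gdf15 3.00 ± 0.29, Ddb2 1.76 ± 0.33, Pidd1, which builds the platform that activates caspase-2 (1.75 ± 0.49), and Gadd45b 1.69 ± 0.17. Lower were Phlda3, a repressor of Akt (-1.26 ± 0.17), Ephx1 -1.18 ± 0.12, Sesn1 -0.85 ± 0.25, not called without FBS day 6 A (-0.61), and Bbc3 -0.82 ± 0.20. All 20 of the cell cycle genes of the DREAM list were higher in A2S (median 1.12). The fibroblast markers summed to 1286 and 1049 CPM in A2S day 6, against 6595 and 6344 CPM in FBS day 6, and their part in these differences was not tested.

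**Figure D2:**
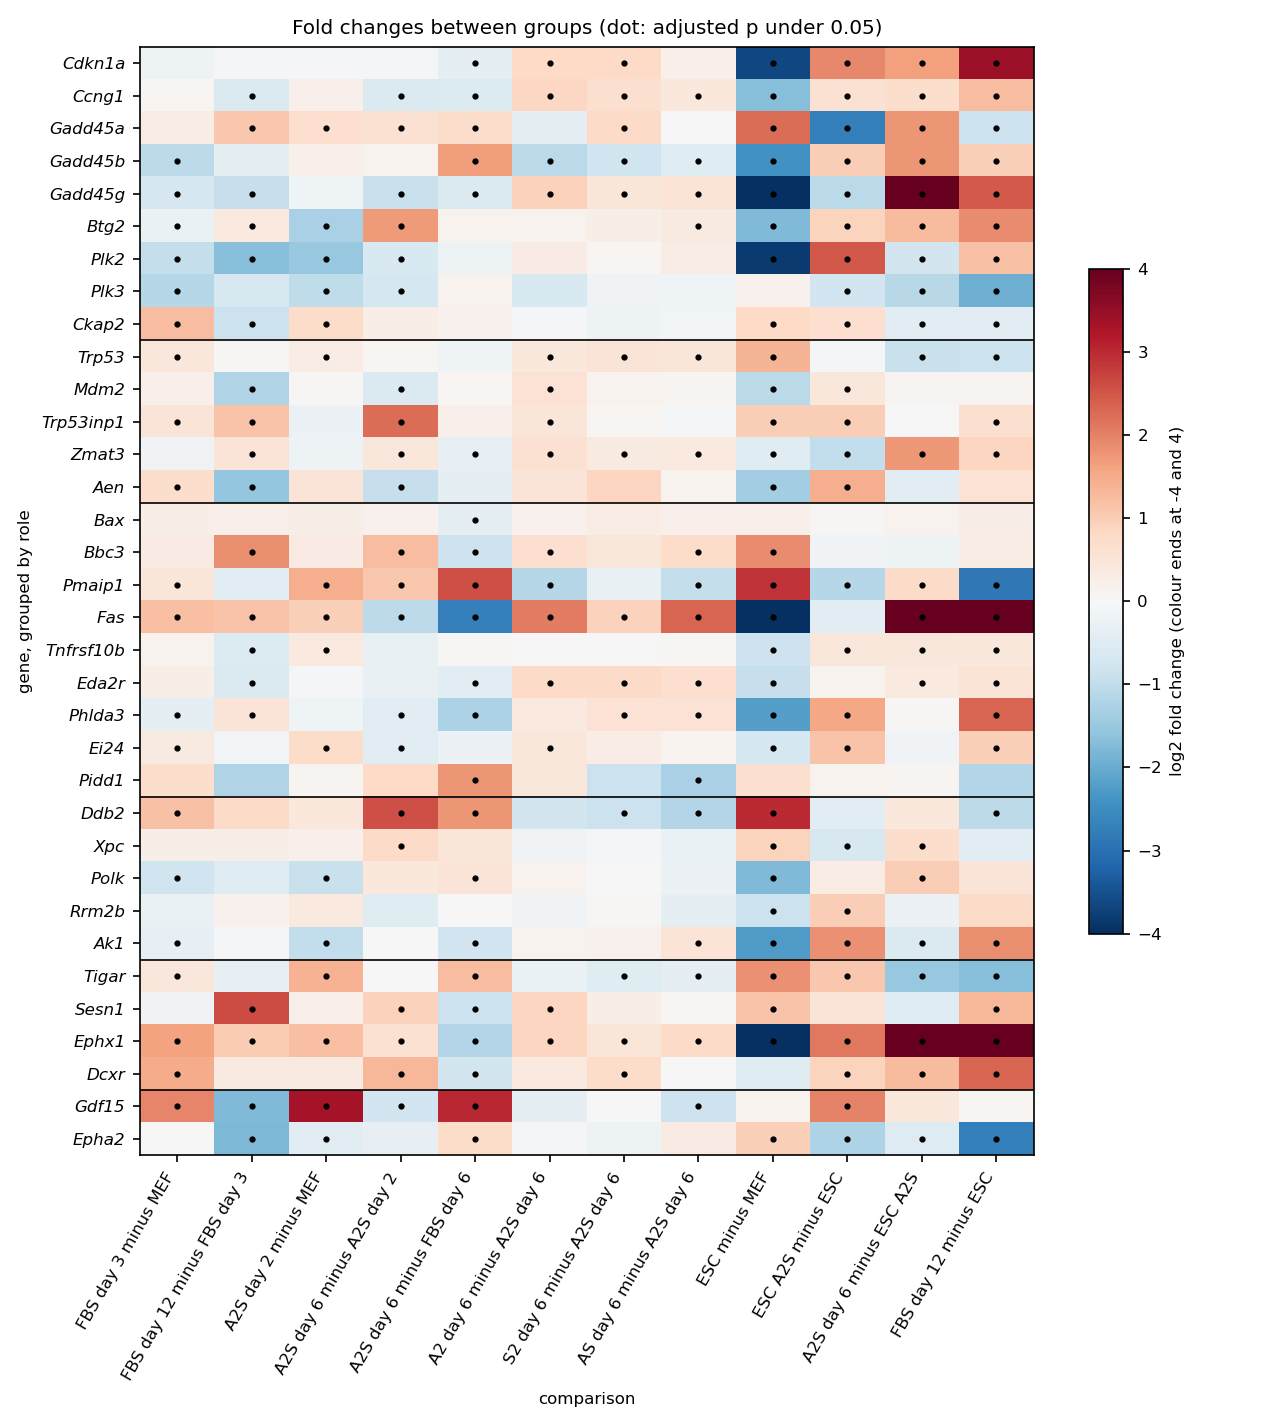
Log2 fold changes of 34 members (rows, grouped by role) in 12 comparisons (columns); colour ends at -4 and 4 and a dot marks an adjusted p under 0.05. The columns for ESC A2S minus ESC and FBS day 12 minus ESC hold 18 and 17 members called higher.

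With one part of A2S left out, more members were higher than lower at day 6. The 3 comparisons share the A2S day 6 libraries, so their values are given side by side only. Without SGC0946 (A2), 13 members were higher and 2 lower (30.8% of all genes were called, 16.7% higher and 14.1% lower). Without ascorbic acid (S2), 11 were higher and 3 lower (16.1% of all genes were called, 8.35% higher and 7.73% lower). Without 2i (AS), 11 were higher and 6 lower (38.6% of all genes were called, 20.9% higher and 17.7% lower). The members' median was 0.35 in A2, 0.20 in S2 and 0.11 in AS, where that of all genes was 0 in each.

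Cdkn1a at day 6 was 869.5 and 984 CPM in A2, 979 and 875 CPM in S2 and 628 and 605 CPM in AS, against 511 and 559.8 CPM in A2S. All libraries of A2 and S2 exceeded every A2S library by over 300 CPM, while those of AS were closest to A2S. The change was 0.79 ± 0.10 in A2 (adjusted p = 2.11e-07), 0.79 ± 0.10 in S2 (adjusted p = 1.07e-06) and 0.20 ± 0.10 in AS, the last without a call (adjusted p = 0.104). After thinning each cell to 1000 UMIs, 47.1% and 57.0% of A2 cells, 56.8% and 52.7% of S2 cells and 40.4% and 39.0% of AS cells held a Cdkn1a UMI, against 37.0% and 36.6% of A2S cells; 4 of 488 A2S cells, 6 of 445 S2 cells and 2 of 462 AS cells were too shallow to thin. Unthinned, these shares ran from 83.3% to 96.6%, and 2 against 2 libraries are too few for an exact test to pass 0.05. The share that free RNA gives in cells without the gene was not measured.

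Ccng1 was called higher in all 3 media (0.84 ± 0.14 in A2, 0.64 ± 0.14 in S2 and 0.42 ± 0.14 in AS), and Trp53 was too (0.41 ± 0.10, 0.52 ± 0.10 and 0.48 ± 0.10 in that order). Without A2S day 6 B, Ccng1 lost its call in S2 (0.51) and AS (0.28), and Trp53 lost it in A2 (0.29); Ccng1 also lost it in AS without AS day 6 A or B (0.39 each) and Trp53 in A2 without A2 day 6 A (0.34). Mdm2 was called in A2 only (0.57 ± 0.14), with 0.13 ± 0.14 in S2 and 0.10 ± 0.14 in AS, and the difference between media was not tested. Of the 5 genes of p53 and its feedback, 4 were higher in A2 and 2 each in S2 and AS.

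Fas was 63.5 and 62.5 CPM in A2, 27.7 and 30.3 CPM in S2 and 75.9 and 77.4 CPM in AS, against 17.8 and 12.5 CPM in A2S. Every library without one of the molecules lay above both A2S libraries (2.04 ± 0.19 in A2, 0.92 ± 0.22 in S2 and 2.33 ± 0.19 in AS). Eda2r, a receptor of the tumour necrosis factor family, rose in each as well (0.78 ± 0.15, 0.77 ± 0.15 and 0.67 ± 0.15). In the other direction, Gadd45b was lower in each (-1.07 ± 0.16, -0.80 ± 0.16 and -0.49 ± 0.15). Without A2S day 6 B the calls were lost for Fas in S2 (0.68) and Gadd45b in S2 (-0.55) and AS (-0.25), and without AS day 6 A for Gadd45b in AS (-0.42). Pmaip1 had 35.7 and 40.5 CPM in A2 and 39.4 and 48.4 CPM in AS, against 84.9 and 84.9 CPM in A2S. Both media were below A2S (-1.15 ± 0.15 and -0.96 ± 0.15).

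The share of all genes called in the same direction in all 3 media was not counted, and the 3 comparisons share the A2S day 6 libraries. A count of members therefore has no background to stand beside and is not read as particular to them. In all, 8 members were called in the same direction in each of the 3 media, 7 of them higher. Beside Ccng1, Trp53, Fas, Eda2r and Gadd45b these were Gadd45g (0.91 ± 0.15 in A2, 0.47 ± 0.15 in S2 and 0.53 ± 0.15 in AS), Ephx1 (0.85 ± 0.12, 0.48 ± 0.12 and 0.77 ± 0.12 in that order) and Zmat3, an RNA-binding zinc finger gene (0.61 ± 0.12, 0.35 ± 0.12 and 0.39 ± 0.12). Zmat3, and the S2 and AS values of Gadd45g and S2 value of Ephx1, are given here after their values were seen. The S2 call of Zmat3 was at the threshold (adjusted p = 0.0499) and was lost with DESeq2 (0.33, adjusted p = 0.109), RLE factors (adjusted p = 0.0625), no count filter (adjusted p = 0.0515), the replicate block (adjusted p = 0.053), the listed cells kept (adjusted p = 0.0501), cells of 1000 UMIs or more (adjusted p = 0.052) and without any of the 4 libraries (0.27 to 0.39). Also lost were the S2 call of Gadd45g without any of the 4 libraries (0.38 to 0.53), that of Ephx1 without A2S day 6 B (0.44) or S2 day 6 A (0.41), the AS call of Gadd45g without A2S day 6 A (0.43) and that of Zmat3 without A2S day 6 A (0.36), A2S day 6 B (0.36) or AS day 6 B (0.32).

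Further calls came in 1 or 2 of the media. Sesn1 (0.85 ± 0.24) was among the largest in A2, and Gadd45a (0.76 ± 0.17) and Dcxr (0.72 ± 0.15) among those in S2. Bbc3 rose in AS (0.73 ± 0.20), and Phlda3 in S2 (0.57 ± 0.17) and AS (0.59 ± 0.17). Ddb2 fell in S2 (-0.87 ± 0.30) and AS (-1.16 ± 0.30), Tigar in S2 (-0.49 ± 0.16), and Pidd1 (-1.30 ± 0.45) and Gdf15 (-0.83 ± 0.21) in AS. The DREAM list had 13 of 20 genes lower in A2, 2 in S2 and 8 in AS. Fibroblast markers summed to 3519 and 3274 CPM in A2, 1728 and 1392 CPM in S2 and 3836 and 3793 CPM in AS, against 1286 and 1049 CPM in A2S, and their part was not tested. Without A2S day 6 B the count of called members in S2 was 6, and calls were lost for Sesn1 in A2 (0.76), Phlda3 and Ddb2 in S2 (0.60 and -0.48) and Pidd1 and Ddb2 in AS (-1.25 and -0.78); without A2S day 6 A they were lost for Phlda3 in S2 and AS (0.51 and 0.52) and Tigar in S2 (-0.40). Without the first library of the medium itself the count was 7 in S2 and 10 in AS, and calls were lost for Sesn1 in A2 (0.73), Gadd45a, Phlda3, Ddb2 and Tigar in S2 (0.52, 0.44, -0.78 and -0.38) and Phlda3, Pidd1 and Gdf15 in AS (0.55, -1.53 and -0.70), and without the second for Ddb2 in S2 (-0.99) and Pidd1 in AS (-1.17). DESeq2 ended the calls of Sesn1 in A2 (0.82, adjusted p = 0.0747), Phlda3 (0.55, adjusted p = 0.0652), Ddb2 (-0.89, adjusted p = 0.16) and Tigar (-0.51, adjusted p = 0.104) in S2 and Pidd1 in AS (-1.32, adjusted p = 0.0913).

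ESCs grown with the A2S molecules had more Cdkn1a and less Gadd45a than ESCs without them. In ESC A2S against ESCs, 18 members were higher and 7 lower (46.7% of all genes were called, 25.2% higher and 21.5% lower), and the median was 0.49 over the members and 0.04 over all genes. All 9 arrest genes were called, 6 of them higher. Cdkn1a had 171 and 171 CPM in ESC A2S, against 48.5 and 42.9 CPM in ESCs. The ESC A2S libraries stood well above the ESC libraries (1.91 ± 0.13, adjusted p = 1.18e-13). After thinning, 15.2% and 11.5% of ESC A2S cells held a Cdkn1a UMI, against 3.62% and 5.49% of ESCs (69.3% and 76.9%, against 37.0% and 38.4%, unthinned); no cell was too shallow. Ccng1 (0.62 ± 0.15) and Mdm2 (0.45 ± 0.15) rose and Trp53 was not called (-0.09 ± 0.10); Mdm2 lost its call without ESC B (0.33) or ESC A2S B (0.39), and Trp53 was called lower with the listed cells kept (-0.25).

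Plk2 had 102 and 107 CPM in ESC A2S, against 21.3 and 16.5 CPM in ESCs. Ephx1 had 16.4 and 19.3 CPM in ESC A2S, against 5.86 and 2.57 CPM in ESCs. Neither overlapped (2.47 ± 0.22 and 2.11 ± 0.30), and Gdf15 (2.00 ± 0.28), Ak1 (1.84 ± 0.14) and Phlda3 (1.56 ± 0.23) rose too. Gadd45a had 14.8 and 12.7 CPM in ESC A2S, against 97.1 and 85.5 CPM in ESCs. It was lower in both ESC A2S libraries (-2.73 ± 0.20, adjusted p = 8.89e-13). Falls were also found for Epha2 (-1.25 ± 0.13), Pmaip1 (-1.15 ± 0.15) and Zmat3 (-0.98 ± 0.15). Gadd45g was called lower (-1.06 ± 0.32), but its libraries overlapped, it lost the call without ESC A2S B (-0.78, adjusted p = 0.0928), and it was 0.20 without ESC B and 1.69 (adjusted p = 3.90e-07) with the listed feeder cells kept. Fibroblast markers summed to 99.6 and 80.7 CPM in ESC A2S, against 22.6 and 19.1 CPM in ESCs, and their part was not tested. How long and at what doses the ESCs saw the molecules is given only as the day 2 label.

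**Figure D3:**
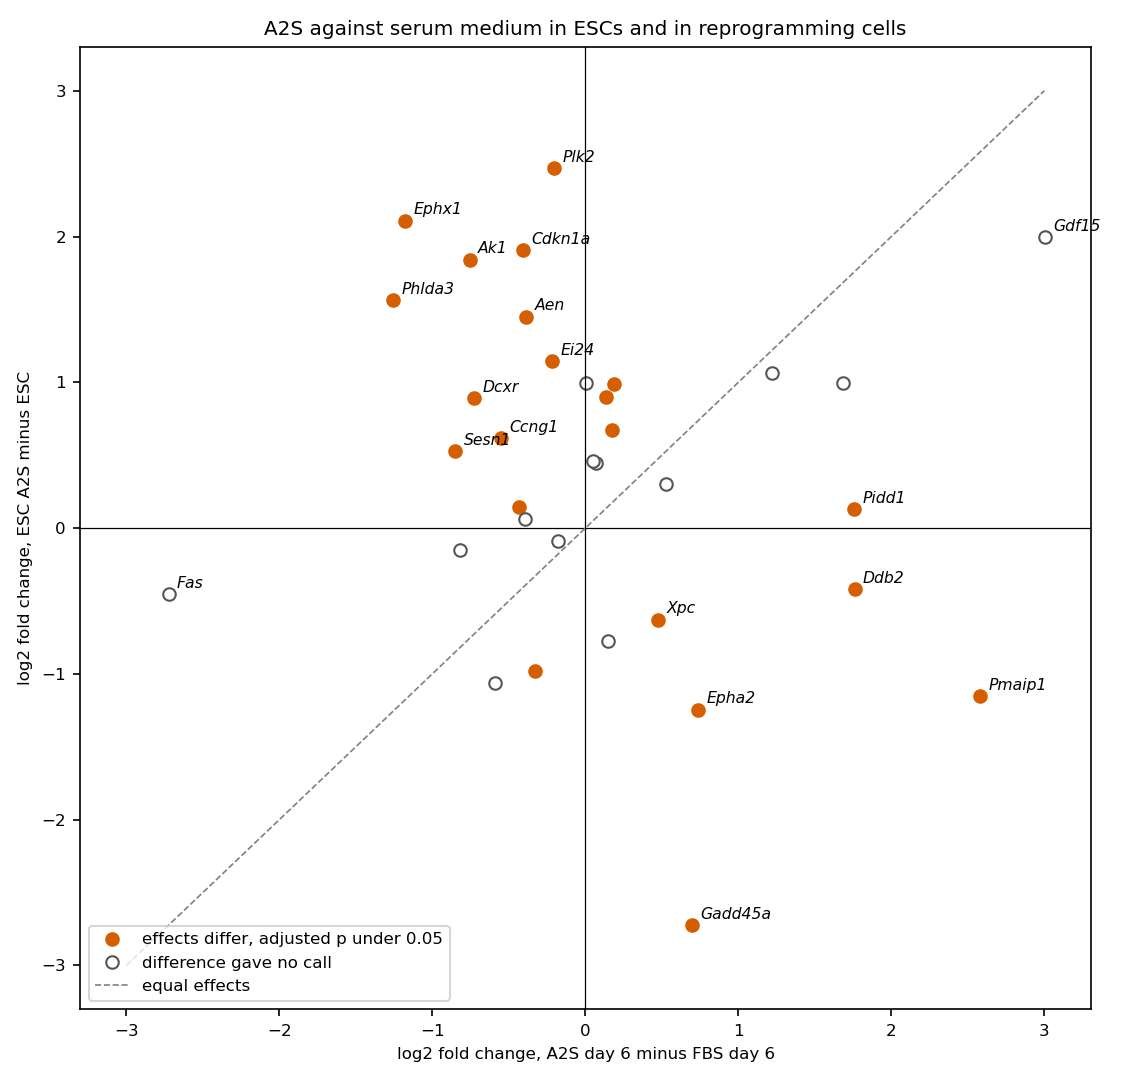
Log2 fold change of each member with the A2S molecules: across, A2S day 6 minus FBS day 6; up, ESC A2S minus ESC. Filled points are the 21 members whose effects differ, with Cdkn1a at -0.40 across and 1.91 up.

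A direct test of the difference between these effects was added after the data were seen. It was not repeated under other settings or with a library left out. The test called 21 of the 34 members (48.7% of all genes), 14 with a higher and 7 with a lower value in ESCs. In 16 of the 21 the 2 effects had opposite signs. The difference was 2.31 for Cdkn1a and 3.29 for Ephx1, both higher in ESCs, and -3.73 for Pmaip1 and -3.42 for Gadd45a.

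Cultures at the end of each course were also set against their ESCs. In A2S day 6 against ESC A2S, 15 members were higher and 7 lower (63.4% of all genes were called, 31.8% higher and 31.6% lower), and in FBS day 12 against ESCs, 17 were higher and 8 lower (66.3% of all genes were called, 34.4% higher). All 9 arrest genes were called in both, 6 of them higher. Cdkn1a had 511 and 559.8 CPM in A2S day 6, against 171 and 171 CPM in ESC A2S (1.64 ± 0.10). It had 487 and 482 CPM in FBS day 12, against 48.5 and 42.9 CPM in ESCs (3.41 ± 0.13). In each course every culture library exceeded every ESC library. Fibroblast markers moved with these differences: 9 of 12 were higher in A2S day 6 than in ESC A2S (median 2.84; summed 1286 and 1049 CPM, against 99.6 and 80.7 CPM), and 12 of 12 were higher in FBS day 12 than in ESCs (median 9.03; summed 6844 and 6206 CPM, against 22.6 and 19.1 CPM). Their part in the rises of Cdkn1a, Fas, Ephx1 and the other members was not tested. Ccng1 was higher in both (0.71 ± 0.14 and 1.23 ± 0.15), Trp53 was lower (-0.90 ± 0.10 and -0.87 ± 0.11) and Mdm2 was not called (0.10 ± 0.14 and 0.11 ± 0.16).

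Fas came to 97 UMIs in A2S day 6 and 2 UMIs in ESC A2S, a ratio of 55.5 (95% interval for counting alone 15.0 to 465), and to 301 UMIs in FBS day 12 and 2 UMIs in ESCs, a ratio of 208 (57.1 to 1727). Ephx1 had 502 and 489 CPM in FBS day 12, against 5.86 and 2.57 CPM in ESCs (6.90 ± 0.21), and the difference was also found in A2S (3.97 ± 0.15). Gadd45g exceeded the ESC level in both courses (4.05 ± 0.22 and 2.47 ± 0.23). In A2S, further rises were Gadd45a 1.77 ± 0.21, Gadd45b 1.75 ± 0.17 and Zmat3 1.73 ± 0.14, and falls were Tigar -1.53 ± 0.14, Plk3 -1.12 ± 0.27, Plk2 -0.75 ± 0.17, Ak1 -0.59 ± 0.12 and Epha2 -0.53 ± 0.15; Plk2 was not called without A2S day 6 B (-0.39), nor Epha2 without A2S day 6 A (-0.43). In serum medium the rises included Phlda3 2.33 ± 0.23 and Dcxr 2.32 ± 0.21, and falls were Pmaip1 -2.87 ± 0.20, Epha2 -2.75 ± 0.18, Plk3 -1.96 ± 0.30, Tigar -1.70 ± 0.19 and Ddb2 -1.05 ± 0.34. Bax, the pore-forming effector of apoptosis, was called in 1 of the 12 comparisons, A2S day 6 against FBS day 6 (-0.39 ± 0.14); it was chosen here after its values were seen.

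Within the cultures, cells with 2 or more UMIs of Epcam and Nanog together were compared with cells that had none, inside each library, since the first gene marks epithelial and the second pluripotent cells. This is a range of cells and not a cell type, and the 5 to 46 cells per library with 1 such UMI were left out. In 8 groups both libraries held at least 10 cells of each kind, with 160 and 167 positive cells in A2S day 6 and 11 and 12 in FBS day 9. Positive cells were deeper than negative ones in every library (medians 9369 to 16960 UMIs, against 4949 to 14386 UMIs), and of the 12 fibroblast markers 3 to 12 were lower in them; the part of either was not tested.

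Over all 11552 genes tested in positive against negative cells, the share called differs by group and stands beside each count. In A2S day 4, 7 of the 34 members were called, 3 higher and 4 lower (7.57% of all genes were called, 2.48% higher and 5.09% lower). A2S day 6 gave 10 calls, 4 higher and 6 lower (23.8% of all genes were called, 11.1% higher and 12.7% lower). In FBS day 9, 9 of the 34 members were called, 1 higher and 8 lower (14.7% of all genes were called, 5.77% higher and 8.92% lower). FBS day 12 gave 13 calls, 6 higher and 7 lower (34.1% of all genes were called, 15.6% higher and 18.5% lower). In A2 day 6, 6 of the 34 members were called, 1 higher and 5 lower (5.92% of all genes were called, 1.84% higher and 4.09% lower). S2 day 6 gave 6 calls, 1 higher and 5 lower (13.8% of all genes were called, 5.43% higher and 8.41% lower). In AS day 6, 11 of the 34 members were called, 7 higher and 4 lower (21.3% of all genes were called, 9.05% higher and 12.3% lower). In S2 day 4 edgeR called none (1.35% of all genes), 5 members had an unadjusted p under 0.05, and DESeq2 called 0 members. In each of the other 7 groups 2 to 5 arrest genes were called, at most 1 of them higher. Most counts fell when a library was left out: without library B to 3 in A2S day 4, 3 in A2S day 6, 4 in FBS day 9, 8 in FBS day 12, 2 in A2 day 6, 3 in S2 day 6 and 3 in AS day 6, and without library A to 1 in A2S day 4 and 2 in S2 day 6; in S2 day 4 they were 2 without A and 1 without B.

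Trp53 at FBS day 12 was 633 and 541 CPM in positive cells, against 246 and 238 CPM in negative cells. The positive cells of both libraries exceeded the negative cells (1.28 ± 0.17, adjusted p = 6.05e-08). It was also called higher in A2S day 4 (0.65 ± 0.16), A2S day 6 (0.91 ± 0.17), FBS day 9 (0.59 ± 0.20) and AS day 6 (0.84 ± 0.15), and not in A2 day 6 (0.00 ± 0.18), S2 day 4 (0.09 ± 0.18) and S2 day 6 (0.34 ± 0.15). The calls in A2S day 4 (0.44) and FBS day 9 (0.20) were lost without library A and that in AS day 6 (0.61) without library B.

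Gadd45g at S2 day 6 was 78.3 and 99.8 CPM in positive cells, against 355 and 269 CPM in negative cells. Both libraries had less of it in positive cells (-1.81 ± 0.26, adjusted p = 7.41e-07), and it was called lower in 5 other groups, all but FBS day 9 and S2 day 4. Ephx1 at FBS day 12 was 178 and 182 CPM in positive cells, against 584 and 564 CPM in negative cells. It was lower there without overlap (-1.67 ± 0.20, adjusted p = 2.99e-09) and called lower in 7 of the 8 groups, S2 day 4 excepted (-0.05 ± 0.17). Fas was called lower in 6 groups, all but A2S day 4 and S2 day 4, with 40.3 and 32.9 CPM in positive cells, against 92.1 and 101 CPM in negative cells at AS day 6. There the 2 kinds of cell did not overlap (-1.38 ± 0.26, adjusted p = 8.49e-05). In FBS day 9 it had 3 UMIs in positive cells, a ratio of 0.132 (95% interval for counting alone 0.0271 to 0.388). Calls were lost for Gadd45g in A2S day 4 without A (-1.24) and A2 day 6 without B (-0.79), for Ephx1 in A2S day 4 without A or B (-0.70 and -0.45) and AS day 6 without B (-0.50), and for Fas in A2S day 6 without B (-1.47), FBS day 9 without A and A2 day 6 and S2 day 6 without either library. DESeq2 ended the calls of Gadd45g in A2S day 4 (-1.23, adjusted p = 0.112) and AS day 6 (-1.12, adjusted p = 0.0836) and of Ephx1 in A2S day 4 (-0.58, adjusted p = 0.102). With 1 or more UMIs in place of 2, the calls of Ephx1 in A2S day 4 (-0.38, adjusted p = 0.105) and Fas in A2 day 6 (-0.70, adjusted p = 0.103) were lost, as was that of Trp53 in FBS day 9 (0.44, adjusted p = 0.0715).

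**Figure D4:**
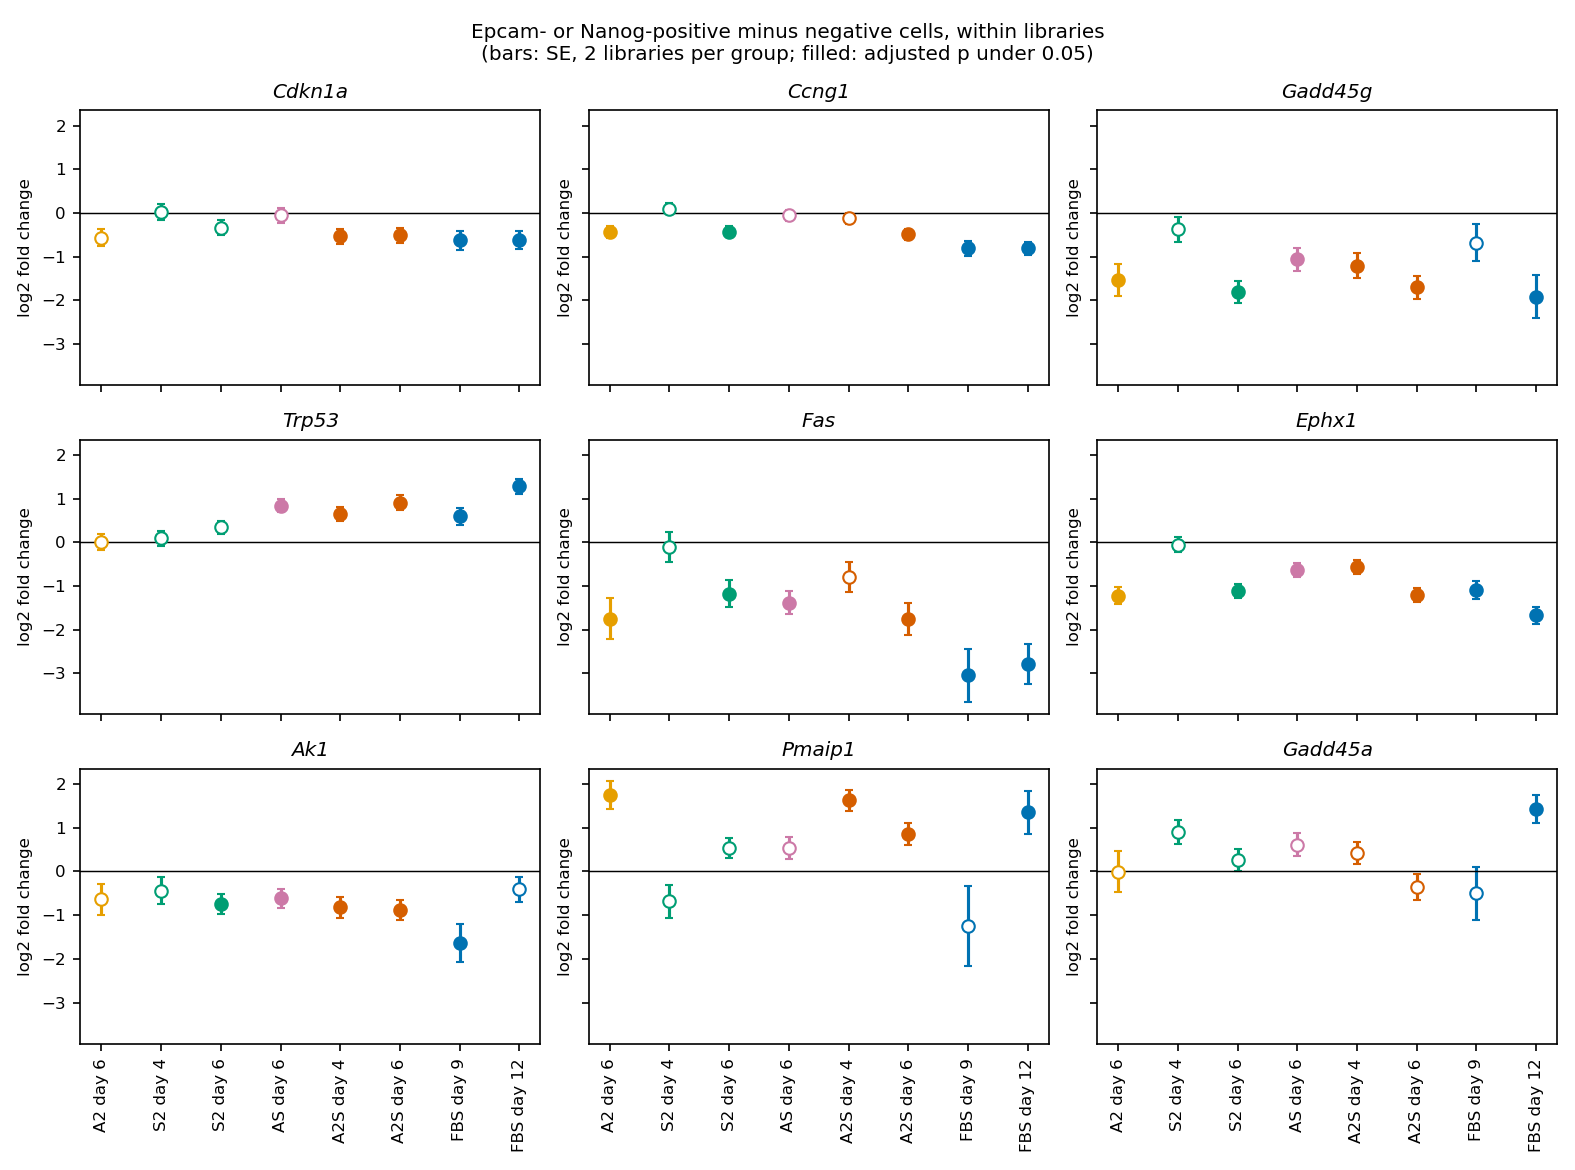
Log2 fold change ± SE of 9 members between cells with 2 or more UMIs of Epcam and Nanog and cells with none, in 8 groups; filled points have an adjusted p under 0.05. Ephx1 is filled in 7 groups, Fas and Gadd45g in 6 and Trp53 in 5.

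Cdkn1a was called lower in 4 groups, A2S day 4 (-0.53 ± 0.17), A2S day 6 (-0.51 ± 0.17), FBS day 9 (-0.62 ± 0.22) and FBS day 12 (-0.61 ± 0.20). At A2S day 6 it was 534 and 491 CPM in positive cells, against 559 and 927 CPM in negative cells. The classes were close in library A and apart in library B, without which the value was -0.06, and all 4 calls were lost with DESeq2; they were lost also without either library in A2S day 4 (-0.55 and -0.53) and without library B in FBS day 9 (-0.32) and FBS day 12 (-0.36). Ccng1 was called lower in 5 groups, in 4 of which a library left out ended the call. Pmaip1 was called higher in 4, A2S day 4 (1.63 ± 0.24), A2S day 6 (0.85 ± 0.26), FBS day 12 (1.36 ± 0.50) and A2 day 6 (1.75 ± 0.31); without library B it was 0.36 in A2S day 6 and 0.45 in FBS day 12, without a call, and DESeq2 did not call it there either (adjusted p = 0.131 and 0.0521). Mdm2 was lower in FBS day 9 (-1.30 ± 0.32) and A2 day 6 (-1.06 ± 0.23) and higher in AS day 6 (0.55 ± 0.18), each call being lost without library B (-0.81, -0.50 and 0.31), that in AS day 6 also with DESeq2 (0.50, adjusted p = 0.211) and that in FBS day 9 with 1 or more UMIs (-0.22, adjusted p = 0.52). Tigar was higher in A2S day 6 (1.34 ± 0.32) and FBS day 12 (1.71 ± 0.39), the first call being lost without library B (1.20). Gadd45a was higher in FBS day 12 (1.42 ± 0.32, but 1.21 and no call without library B). There its effect differed from that in A2S day 6 (-0.35 ± 0.29) by 1.77 (adjusted p = 0.0154 in an interaction test). Among the 34 members this was the 1 such difference, where 2.16% of all genes differed. The count is therefore not read as particular to the members. In the DREAM list 9 to 19 of 20 cell cycle genes were higher in positive cells in the groups other than S2 day 4, where 2 were lower.

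The barcodes on the feeder list had more Cdkn1a and less Trp53 than the other cells of their libraries. How they were chosen is not given in the sources used here and may have used expression, so they are described without a test, over the 17 libraries with 10 or more of them (622 cells), in CPM of library totals. Cdkn1a had a median of 1005 CPM in listed cells (range 426 to 2351), against 543 CPM in the other cells (range 166 to 915). It was higher in the listed cells in 16 of 17 libraries, all but FBS day 12 B. Ak1 had 404 CPM in listed cells (range 319 to 461), against 134 CPM in the other cells (range 86.7 to 189.9), and was the one member higher in every library, as were 3.21% of 14095 genes. Trp53 had 129 CPM in listed cells (range 90.3 to 239.6), against 269.9 CPM in the other cells (range 156 to 461). Together with Ckap2 and Eda2r it was lower in all 17, as were 6.65% of the same 14095 genes. These genes had 33 or more UMIs in listed and other cells together, so genes sparser than any member could enter. Fibroblast markers summed to a median of 12422 CPM in listed cells (range 5792 to 23662), against 4889 CPM in the others (range 78.2 to 10730), being higher in 16 of 17 libraries. Macrophage and blood markers summed to a median of 338 CPM in listed cells (range 0 to 1708), against 101 CPM in the others (range 8.44 to 375), higher in 12 of 17 libraries. Interferon-response genes summed to 142 CPM in listed cells (range 16.05 to 3033), against 53.8 CPM in the others (range 26.5 to 1194), higher in 16 of 17. The part of these markers was not tested. With a minimum of 20 listed cells, in 10 libraries, 7 members were higher and 5 lower in every one, where 10.9% of 13471 genes were higher and 15.4% lower.

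**Figure D5:**
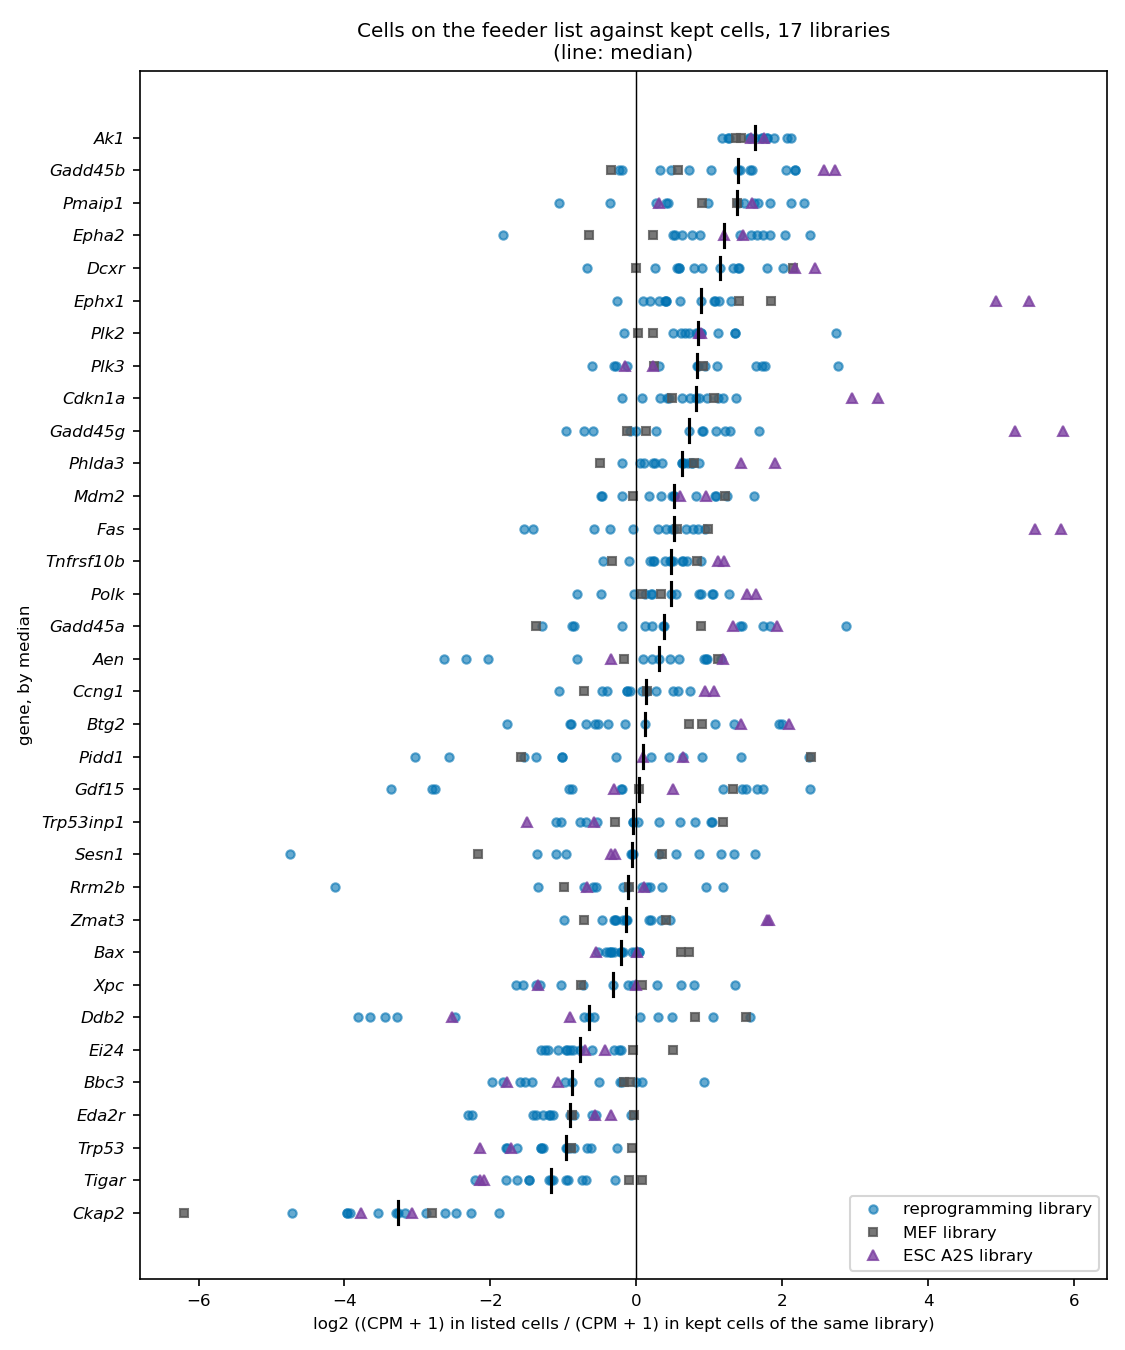
Log2 ratio of (CPM + 1) in cells on the feeder list to that in the other cells of the same library, for 34 members in 17 libraries; circles are reprogramming cultures, squares MEFs and triangles ESC A2S, with a line at the median. Cdkn1a lies above 0 in 16 libraries, and Trp53 lies below 0 in all 17.

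Beside ESC A2S, 98 listed cells lay among pluripotent ones. Cdkn1a had 1526 CPM in the listed cells, against 167 CPM in the others. Ephx1 had 666 CPM in the listed cells, against 17.4 CPM in the others. Fas, all but missing from the stem cells, had 62.3 CPM in the listed cells, against 0.268 CPM in the others. Of these 98 cells, 19 held 2 or more UMIs of Epcam and Nanog. A second list, of 47 further p53 targets that were tested, is described with the other observations.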

How the data were processed

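The deposited tables hold UMI counts, whole numbers for each gene in each cell, which the authors made from 3' droplet libraries (ddSEQ, SureCell kit), per the labels' protocols, with bcl2fastq 2.19, STAR and mm10, per the submitters' processing notes. Which program, annotation and strand setting were used for counting is not given in the sources used here, so reads of Gadd45a, Plk3 and Ddb2, which overlap a gene on the other strand, may be shared with it. Barcodes on the authors' feeder list were left out of the tests, and doublets were not searched for. Sums of UMI counts per library entered edgeR 4.0.16 in R 4.3.3, with TMM factors, filterByExpr and the quasi-likelihood test, in one fit of 32 libraries, or per library and class of cells with the library as a block. The 3' counts were not set against each other between genes. CPM are scaled with TMM factors except for listed cells. Replicates differed by more than sampling noise (chi-square per degree of freedom 1.64 to 8.62). Replicate letters do not pair the libraries: their correlations ran from -0.0858 to 0.074.

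The members and gene lists were chosen with earlier results of these data known. In each comparison values were given for Cdkn1a, Mdm2, Ccng1 and Trp53 and for up to 5 other called members each way with the largest change; among cells of a culture a part of these is given, chosen for length after values were seen. Of each further list up to 2 called genes each way at 20 CPM or more could be named. Only some of these lists and genes are given, and no rule set which. In a simulation of AS day 6 against A2S day 6 with 12191 genes, 39 of 67 genes with a 1.5-fold change were recovered (58.2%). So were 63 of 67 with a 2-fold (94.0%) and 65 of 66 with a 4-fold change (98.5%), and 6 of 173 calls were false. The changed genes were drawn from those averaging 20 CPM or more, so these shares do not cover rarer members. Far fewer genes were changed than in the data, where 38.6% of all genes were called in this comparison. Other settings tried were DESeq2 1.42.0, RLE factors, a fit with no count filter, the replicate letter as a block, a minimum of 1000 UMIs per cell, keeping the listed cells, fitting the compared groups alone, 1 or more marker UMIs against 0, and leaving out each library. Figures were drawn with matplotlib 3.10.9. Python was 3.11.15, with numpy 2.4.6, pandas 2.3.3 and scipy 1.17.1.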

Additional observations from a re-analysis of the deposited data

Results flagged for a closer look

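The A2S molecules went with different changes in the 2 kinds of cell. For 21 members an interaction test in edgeR found that the log2 fold change of ESC A2S against ESCs differed from that of A2S day 6 against FBS day 6 (adjusted p under 0.05, n = 2 libraries per group; 48.7% of all genes did). This test was added after the data were seen and was not repeated under other settings or with a library left out. The differences below are the change in ESCs minus that in the reprogramming cultures. The change was positive in ESCs and negative in the cultures for Cdkn1a 2.31, Ccng1 1.17, Plk2 2.67, Aen 1.84, Eda2r 0.58, Phlda3 2.82, Ei24 1.37, Ak1 2.60, Sesn1 1.38, Ephx1 3.29 and Dcxr 1.62. With both changes positive, and the larger one in ESCs, came Btg2 0.77, Ckap2 0.50 and Trp53inp1 0.80. It was negative in ESCs and positive in the cultures for Gadd45a -3.42, Pmaip1 -3.73, Ddb2 -2.18, Xpc -1.10 and Epha2 -1.98. In Pidd1 (-1.62) both changes were positive and in Zmat3 (-0.65) both were negative. The cultures hold fibroblasts and the labels give doxycycline for the cultures alone, so cell type, doxycycline and the length of exposure cannot be told apart in this contrast.

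Of the 34 members, 1 differed between FBS day 12 and A2S day 6 in the contrast of Epcam- or Nanog-positive against negative cells. Over all genes 2.16% differed, so the count is not read as particular to the members. Gadd45a was 1.42 in FBS day 12 and -0.35 in A2S day 6, a difference of 1.77 (adjusted p = 0.0154 in an interaction test in edgeR). The test was added after the data were seen, and no other pair of groups was tested. Medium and day differ together in this pair and cannot be told apart. The call of Gadd45a in FBS day 12 was lost without library B, as given above.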

How the results depend on the processing

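Every count of called members over whole libraries stayed within 1.5 times its value with DESeq2, RLE factors, no count filter, a minimum of 1000 UMIs per cell, the listed cells kept or the compared groups fitted alone. With the replicate letter as a block all 12 counts did too (for example 19 of 34 members in FBS day 3 against MEFs and 13 in S2 day 6 against A2S day 6). Of 169 values of named genes, that of Zmat3 in S2 day 6 alone lost its call, but the letters do not pair the libraries. Single genes were less stable. Here a value is a named gene in 1 comparison. The totals include values that were not called to begin with, so they do not give the share of calls lost. DESeq2 ended 29 calls among 246 values, RLE factors 7 and no count filter 2. Keeping the listed cells ended 3 among 169 values, and 1 or more UMIs in place of 2 ended 15 among 77. Depth limits the rarer members: Fas had 2 UMIs in ESCs. Thinning to 500 or 2000 UMIs moved the gap in the share of cells with Cdkn1a between ESC A2S and ESCs to 6.02 or 18.4 percentage points, from 8.83.

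Leaving out a library changed more, the lone library being assumed to vary like the other groups. The count ranged from 12 to 17 in FBS day 3 against MEFs, 6 to 11 in S2 day 6 and 10 to 14 in AS day 6 against A2S day 6. Between positive and negative cells it ranged from 1 to 3 in A2S day 4, 3 to 11 in A2S day 6, 4 to 8 in FBS day 9, 8 to 11 in FBS day 12, 2 to 6 in A2 day 6, 1 to 2 in S2 day 4, 2 to 3 in S2 day 6 and 3 to 8 in AS day 6. DESeq2 called 2 members in A2S day 4 and 5 in AS day 6, and cells with 1 or more UMIs in place of 2 gave 4 in A2S day 4 and 5 in FBS day 9. With 20 or more listed cells per library, 7 members were higher and 5 lower in every library (10.9% and 15.4% of 13471 genes). The cause of these shifts was not tested. Over the named genes, leaving out a library gave 830 values, of which 697 were unchanged in call and direction, 114 lost their call and 18 turned round.

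Apart from Gadd45g in ESC A2S against ESCs (1.69 with listed cells kept; -1.67 to 0.20 with a library left out), the values that turned round were not called to begin with. With listed cells kept these were Cdkn1a in FBS day 3 (0.011) and A2S day 2 (0.082) against MEFs and Mdm2 in A2S day 6 against FBS day 6 (-0.014) and ESC A2S (-0.020) and in FBS day 12 against ESCs (-0.023). In A2S day 2 against MEFs Mdm2 was -0.056 with RLE factors, -0.029 without a count filter and -0.056 with DESeq2. Cdkn1a in A2S day 6 against day 2 was 0.027 with RLE factors, 0.026 with DESeq2 and 0.025 in a fit of these groups alone. Between positive and negative cells, S2 day 4 gave 0.027 (RLE), 0.021 (DESeq2) and 0.13 (1 or more UMIs) for Mdm2 and -0.020 (no filter) for Cdkn1a, and A2 day 6 gave -0.037 (no filter) for Trp53 and 0.023 (1 or more UMIs) for Cdkn1a. With 1 or more UMIs, Mdm2 was 0.0084 in A2S day 4, and Cdkn1a and Ccng1 were 0.16 and 0.029 in AS day 6. With a library left out, FBS day 3 against MEFs gave -0.015 to 0.34 for Mdm2 and -0.10 to 0.19 for Ccng1; FBS day 12 against day 3 gave -0.15 to 0.019 for Cdkn1a and -0.046 to 0.091 for Trp53; Mdm2 ran from -0.35 to 0.23 in A2S day 2 against MEFs and from -0.039 to 0.21 in FBS day 12 against ESCs, and Cdkn1a from -0.055 to 0.081 in A2S day 6 against day 2. Between positive and negative cells, Trp53 ran from -0.12 to 0.10 in A2 day 6 and Ccng1 from -0.23 to 0.10 in AS day 6, and S2 day 4 gave -0.60 to 0.56 for Cdkn1a, -0.25 to 0.12 for Mdm2, -0.087 to 0.27 for Ccng1 and -0.078 to 0.24 for Trp53.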

Other observations

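Genes that act on p53 were followed beside its targets, in a list of 24 of which 23 were tested. Cdkn2a, whose Arf product blocks Mdm2, averaged 44.4 ± 11.003 CPM in FBS day 3, against 11.1 ± 1.21 CPM in MEFs (SD, n = 2 each; log2 fold change 2.01 ± 0.22), and it was higher again in FBS day 12 than in FBS day 3 (1.45 ± 0.19). In A2S day 2 it was also above MEFs (1.86 ± 0.22), and in A2S day 6 below FBS day 6 (-0.85 ± 0.18). It was higher in S2 day 6 (0.52 ± 0.18) and AS day 6 (0.82 ± 0.17) than in A2S day 6. More of the 23 genes were lower than higher there. In S2 day 6, 3 were higher and 4 lower (8.35% and 7.73% of all genes), and in AS day 6, 3 were higher and 8 lower (20.9% and 17.7% of all genes). A2 day 6 had 2 higher and 3 lower (16.7% and 14.1% of all genes). Counts are per gene, so the Arf product of Cdkn2a is not told apart from its other product, Ink4a. The checkpoint kinase genes Chek1 and Chek2 were higher in A2S day 6 than in FBS day 6 (1.38 ± 0.18 and 1.84 ± 0.21) and in ESCs than in MEFs (2.31 ± 0.15 and 2.25 ± 0.18). In all, 14 of these genes were higher and 3 lower in ESCs than in MEFs. Of all genes 71.8% were called there, 36.3% higher and 35.5% lower.

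Of 47 further p53 targets tested against A2S day 6, 15 were higher and 5 lower in A2 day 6 (16.7% of all genes were higher and 14.1% lower), 11 higher and 2 lower in S2 day 6 (8.35% and 7.73% of all genes), and 16 higher and 5 lower in AS day 6 (20.9% and 17.7% of all genes). Igfbp3, a binder of insulin-like growth factors, was higher in FBS day 12 than in FBS day 3 (2.69 ± 0.20). It was lower in A2S day 6 than in FBS day 6 (-3.05 ± 0.20). In the first of these comparisons 15 of the 47 were higher and 9 lower (23.5% and 22.2% of all genes). In the second 9 were higher and 14 lower (26.4% and 26.2% of all genes). Ccnd2, cyclin D2, was higher in A2S day 6 than in ESC A2S (8.04 ± 0.21) and in FBS day 12 than in ESCs (7.51 ± 0.18).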
